A study of Mus musculus with 374 samples.

Results

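Transcription factors that set up the B lymphocyte programme were followed across 5 sorted blood cell populations of 1 mouse. The group was taken as a list of 7 genes by name (Pax5, Ebf1, Foxo1, Pou2af1, Bach2, Spib and Irf4). Of the 7, 6 were measured among 19829 mouse gene rows, and Pou2af1 is not analysed here. Single cells were profiled by CEL-seq2, a plate method that counts the 3′ ends of transcripts with unique molecular identifiers (UMIs), so that copies of the same molecule made by PCR count once. The mouse was a C57BL/6 female of 10 to 13 weeks with no treatment or engineered allele named in the sources used here. Its bone marrow gave 44 wells of B lymphocytes (B_Lymph, sorted as B220+ with low forward scatter), 96 of granulocytes (Grans, Mac1+ Gr1+), 96 of erythroblasts (EryB, Ter119+ CD44+ with mid to high forward scatter) and 95 of progenitor/stem cells (LSK, Lin- Kit+ Sca1+), and its thymus gave 43 wells of T lymphocytes (T_Lymph, CD3+ with low forward scatter).

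These factors act in a chain as B cells form in the marrow. Ebf1 and its target Pax5 commit progenitors to the lineage and switch on the pre-B cell receptor and CD79 genes, and Pax5 also shuts off genes of other lineages. Foxo1 acts beside Ebf1 in early B cells, drives the recombinase genes Rag1 and Rag2, and is also known in T cells as a regulator of Il7r. Bach2 is a repressor that holds back the plasma cell regulator Prdm1 and is used by B and T cells. Spib encodes Spi-B, an Ets factor close to PU.1, and Irf4 encodes an interferon regulatory factor that pairs with PU.1 or Spi-B at immunoglobulin light chain enhancers and later directs plasma cells.

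All wells of a population were summed, and a level is given as UMIs per 1000000 UMIs on mouse genes (CPM). The sums held 135808 UMIs for B lymphocytes, 200396 for T lymphocytes, 834812 for LSK cells, 403506 for granulocytes and 666728 for erythroblasts, so that 1 UMI was worth 7.36 CPM in B lymphocytes and 1.20 CPM in LSK cells. The median well held 3028.5, 4347, 7959, 3880 and 6113.5 UMIs in that order. Each population is 1 sample from 1 mouse on 1 plate, so no p-value is given, and the 95% intervals (exact Poisson for a level, Clopper-Pearson for a share of wells, exact conditional binomial for a ratio) cover counting error only. Each population also sat in plate rows of its own, so that population and plate position cannot be told apart. The 5 B lymphocyte markers (Cd79a, Cd79b, Ms4a1, Ighm and Vpreb3) summed to 9123 CPM in B lymphocytes and to between 120.0 and 299 CPM in the other populations, which is between 1.32% and 3.28% of the B lymphocyte level. Among the B lymphocyte wells, A8 stood apart: its Gr1 fluorescence was 15209, granulocyte markers took 11.5% of its UMIs, and it had no UMI of a B lymphocyte marker. Well B2 had a CD3 fluorescence of 7905 but no UMI of the 7 T lymphocyte markers, and B lymphocyte markers took 1.36% of its UMIs. Well B6, the shallowest at 485 UMIs, also had no UMI of a B lymphocyte marker, and erythroblast markers took 18.6% of its UMIs. Erythroblast markers took 5.35% to 14.1% of the UMIs of wells B19 to B24, against a median of 1.87% over the B lymphocyte wells. All of these wells were kept.

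The stretches upstream of 3 members are shown because these genes carry the contrast described below: Ebf1 and Irf4 were high in B lymphocytes only among the populations sorted, and Foxo1 was also high in T lymphocytes. They are read 5′ to 3′ on the strand of the gene from RefSeq promoter windows (GRCm38.p6), end where an annotated exon begins or at the RefSeq start, and carry matches to 1 of the searched motifs in capitals. The Ebf1 stretch is chr11:44619978-44620227 on the plus strand, upstream of the later of its RefSeq starts and therefore inside the span that GENCODE gives the gene, the Irf4 stretch chr13:30748983-30749225 on the plus strand, and the Foxo1 stretch chr3:52268087-52268335 on the plus strand.
Ebf1: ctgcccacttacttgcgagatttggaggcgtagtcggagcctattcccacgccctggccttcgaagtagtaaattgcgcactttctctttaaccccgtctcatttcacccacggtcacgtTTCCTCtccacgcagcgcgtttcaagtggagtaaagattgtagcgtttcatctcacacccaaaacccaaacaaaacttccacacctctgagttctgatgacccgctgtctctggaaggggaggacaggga
Irf4: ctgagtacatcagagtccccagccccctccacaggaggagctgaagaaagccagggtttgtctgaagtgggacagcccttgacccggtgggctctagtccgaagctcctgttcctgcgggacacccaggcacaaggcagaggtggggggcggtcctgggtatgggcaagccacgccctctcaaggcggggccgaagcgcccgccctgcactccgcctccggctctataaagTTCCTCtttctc
Foxo1: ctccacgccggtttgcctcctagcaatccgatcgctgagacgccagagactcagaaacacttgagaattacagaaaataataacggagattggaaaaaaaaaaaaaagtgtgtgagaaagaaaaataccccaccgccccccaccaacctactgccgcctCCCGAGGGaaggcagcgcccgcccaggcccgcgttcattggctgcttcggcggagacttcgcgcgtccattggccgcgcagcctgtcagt
The capitals mark TTCCTC in Ebf1 (first base at -130 from the RefSeq start) and in Irf4 (first base at -19). TTCCTC is the reverse complement of GAGGAA, the core bound by PU.1 and Spi-B. In Foxo1 the capitals mark CCCGAGGG (first base at -91), a match to CCCNNGGG, the palindrome bound by EBF proteins. Both strands of each window were searched for these motifs and for the octamer ATGCAAAT, the E-box CAGCTG, the FOXO motif GTAAACA and the IRF motif, a repeat of GAAA with 2 free bases between. Of 32851 mouse promoter windows, 23.3% held GAGGAA, 11.8% CCCNNGGG, 13.0% CAGCTG, 3.17% GTAAACA, 2.98% the IRF motif and 1.60% ATGCAAAT, so the matches shown are common ones. Spib also held CCCNNGGG, in a pair of overlapping matches that start at -65 and -64, and a further Ebf1 window, which lies within annotated exons and is not printed, held the IRF motif on its reverse strand. No searched motif was found in the windows of Pax5 and Bach2, which says only that these letters are not there. A match is a string of letters and not a site shown to be bound.

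The members summed to 1377 CPM in B lymphocytes (187 UMIs, interval 1187 to 1589), 344 in T lymphocytes (69 UMIs, 268 to 436), 42.1 in granulocytes (17 UMIs, 24.5 to 67.5), 35.9 in LSK cells (30 UMIs, 24.3 to 51.3) and 12.0 in erythroblasts (8 UMIs, 5.18 to 23.6). At least 1 member had a UMI in 40 of 44 B lymphocyte wells and in 31 of 43 T lymphocyte wells. The same held for 22 of 95 LSK wells, 16 of 96 granulocyte wells and 8 of 96 erythroblast wells. B lymphocytes were highest, T lymphocytes came next, and the intervals of LSK cells and granulocytes overlapped. The B lymphocyte sum was 1446 CPM without wells A8 and B2, and 1437 CPM without B19 to B24. By gene, the members fell into a pair found almost wholly in B lymphocytes (Ebf1 and Irf4), a pair shared with T lymphocytes (Foxo1 and Bach2) and a pair with very few UMIs (Spib and Pax5).

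**Figure D1:**
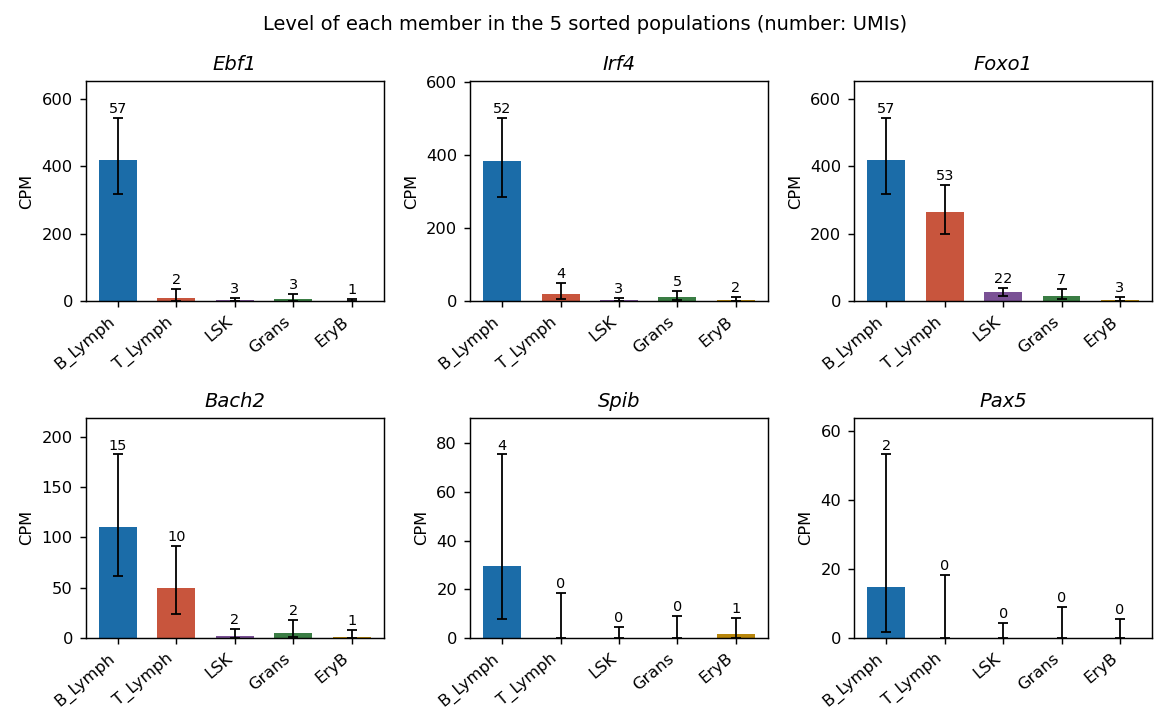
Level of each of the 6 measured members in the 5 sorted populations, in CPM of the summed wells, with a panel and a linear axis for each gene. Bars are the levels, error bars the 95% exact Poisson intervals, and the number above each bar the UMI count. Ebf1 and Irf4 stand high in B lymphocytes alone, Foxo1 and Bach2 in B and T lymphocytes, and Spib and Pax5 rest on 4 and 2 UMIs in B lymphocytes.

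Ebf1, the early factor that primes the B lymphocyte programme, lies at chr11:44617317-45008091 on the plus strand (GRCm38). It reached 419.7 CPM in B lymphocytes (57 UMIs, interval 318 to 544). The other populations held 2 UMIs in T lymphocytes (9.98 CPM), 3 in granulocytes (7.43 CPM), 3 in LSK cells (3.59 CPM) and 1 in erythroblasts (1.50 CPM). B lymphocytes were 42.1-fold above T lymphocytes, the next in order (interval 11.1 to 356), while the other 4 populations did not differ from their neighbours in that order beyond counting error. A UMI of Ebf1 was seen in 29 of 44 B lymphocyte wells (65.9%, 50.1 to 79.5), with at most 4 in a well, and in 2 of 43 T lymphocyte wells (4.65%). Thinned to 1000 UMIs per well, which evens out depth, the shares were 34.5% in B lymphocytes and 1.15% in T lymphocytes, with 1 shallower well left out of each.

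Irf4 (chr13:30749226-30766976, plus strand) followed the same order. Its level was 383 CPM in B lymphocytes (52 UMIs, 286 to 502), 20.0 in T lymphocytes (4 UMIs), 12.4 in granulocytes (5 UMIs), 3.59 in LSK cells (3 UMIs) and 3.00 in erythroblasts (2 UMIs). The step from B to T lymphocytes was 19.2-fold (7.06 to 73.0), and no later step in the order exceeded counting error. Irf4 was seen in 23 of 44 B lymphocyte wells (52.3%, 36.7 to 67.5), with up to 6 UMIs in a well, and in 4 of 43 T lymphocyte wells (9.30%). At 1000 UMIs per well these shares were 27.4% and 2.03%. Irf4 also marks plasma cells, and of the plasma cell genes Prdm1 had no UMI in the B lymphocyte sum while Sdc1 had 9, in 9 wells.

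Foxo1 (chr3:52268336-52353221, plus strand) was the member with the most UMIs outside B lymphocytes. It stood at 419.7 CPM in B lymphocytes (57 UMIs, 318 to 544), at 264.5 in T lymphocytes (53 UMIs, 198 to 346), at 26.4 in LSK cells (22 UMIs, 16.5 to 39.9), at 17.4 in granulocytes (7 UMIs, 6.98 to 35.7) and at 4.50 in erythroblasts (3 UMIs, 0.928 to 13.2). B over T lymphocytes was 1.59-fold (1.07 to 2.35), under the 2-fold rule used here, and when both populations were scaled to their ERCC spike-in UMIs the log2 ratio of 0.67 fell to 0.23. The larger step was from T lymphocytes to LSK cells, at 10.0-fold (6.00 to 17.3). Foxo1 was detected in 27 of 44 B lymphocyte wells (61.4%, 45.5 to 75.6) and in 25 of 43 T lymphocyte wells (58.1%, 42.1 to 73.0), against 17 of 95 LSK wells (17.9%), 7 of 96 granulocyte wells and 3 of 96 erythroblast wells. At 1000 UMIs per well the 5 shares were 33.1%, 22.7%, 2.76%, 2.02% and 0.710% in that order, with 2 granulocyte wells and 1 erythroblast well also left out as too shallow.

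Bach2 (chr4:32238804-32586108, plus strand) also had B and T lymphocytes at the top, at lower counts. B lymphocytes held 15 UMIs (110.5 CPM, 61.8 to 182) and T lymphocytes 10 (49.9 CPM, 23.9 to 91.8). LSK cells held 2 UMIs, both in the same well (2.40 CPM), granulocytes 2 (4.96 CPM) and erythroblasts 1 (1.50 CPM). The 2.21-fold difference between B and T lymphocytes had an interval of 0.930 to 5.51, which includes 1, so the 2 lymphocyte populations were not told apart at this depth. T lymphocytes were 10.1-fold above granulocytes, the next in order (2.15 to 94.5). Bach2 was found in 13 of 44 B lymphocyte wells (29.5%) and in 8 of 43 T lymphocyte wells (18.6%), or 9.82% and 4.60% at 1000 UMIs per well. Prdm1, the gene it is best known to repress, had no UMI in either lymphocyte population. It had at most 2 UMIs in any other, too few to set the populations apart.

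Spib and Pax5 were close to the limit of detection. Spib (chr7:44525993-44532071, minus strand) gave 4 UMIs in 4 B lymphocyte wells (29.5 CPM, 8.03 to 75.4), 1 UMI in erythroblasts (1.50 CPM) and none in the other populations. The interval of its fold in B lymphocytes began at 4.06 over LSK cells, at 1.96 over granulocytes and at 0.974 over T lymphocytes, which includes 1. Over erythroblasts the ratio was 19.6-fold with an interval of 1.94 to 967. Pax5 (chr4:44524757-44710487, minus strand), the commitment factor itself, gave 2 UMIs, both in the B lymphocyte well A16 (14.7 CPM, 1.78 to 53.2). No other population held a UMI of Pax5, which, taking 3 counts as the limit of a 0, allows a share of wells with a UMI of up to 6.98% in T lymphocytes, 3.16% in LSK cells and 3.12% in granulocytes and erythroblasts. These limits cover UMIs and not expression, since Pax5 was seen in only 2.27% of the B lymphocyte wells themselves. With 2 UMIs no fold is given for Pax5, although Cd79a, which Pax5 activates, stood at 1150 CPM in the same B lymphocyte wells.

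A fold rule was applied where the UMIs of a gene in both populations came to 10 or more, with sums under 3 UMIs set to 3, and a gene at least 2-fold apart was counted as higher or lower. Spib and Pax5 stayed below 10 UMIs, so 4 of the 6 measured members were counted. Against T lymphocytes, 3 of 4 were higher in B lymphocytes (Ebf1, Irf4 and Bach2), where 12.1% of 5441 genes were higher and 21.7% lower. Against LSK cells all 4 were higher, where 11.2% of 9710 genes were higher and 14.5% lower. Of the 1092 genes higher there, 204 had under 3 UMIs in B lymphocytes and owed the call to the floor, and none of the members was among them. All 4 were also higher than in granulocytes, where 27.8% of 6043 genes were higher and 15.7% lower, and than in erythroblasts, where 30.5% of 6600 genes were higher and 15.7% lower. Ebf1, Irf4 and Bach2 reached 10 UMIs against LSK cells only through B lymphocytes, as did all 4 members against granulocytes and erythroblasts. The same held for Ebf1 and Irf4 against T lymphocytes. B lymphocytes are the smallest pool, so entry by that route all but fixes a call as higher over LSK cells, granulocytes or erythroblasts. Such calls are no support, and the shares of all genes are not a like comparison. With the same floor, the median log2 ratio of the 4 members was 2.70, 5.84, 4.78 and 6.48 over T lymphocytes, LSK cells, granulocytes and erythroblasts, while over all genes counted it was -0.25, -0.04, 0.33 and 0.35. These medians rest on the same route of entry, so they too are not a like comparison. The counts of members did not change without well A8, without A8 and B2, or without B19 to B24.

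**Figure D2:**
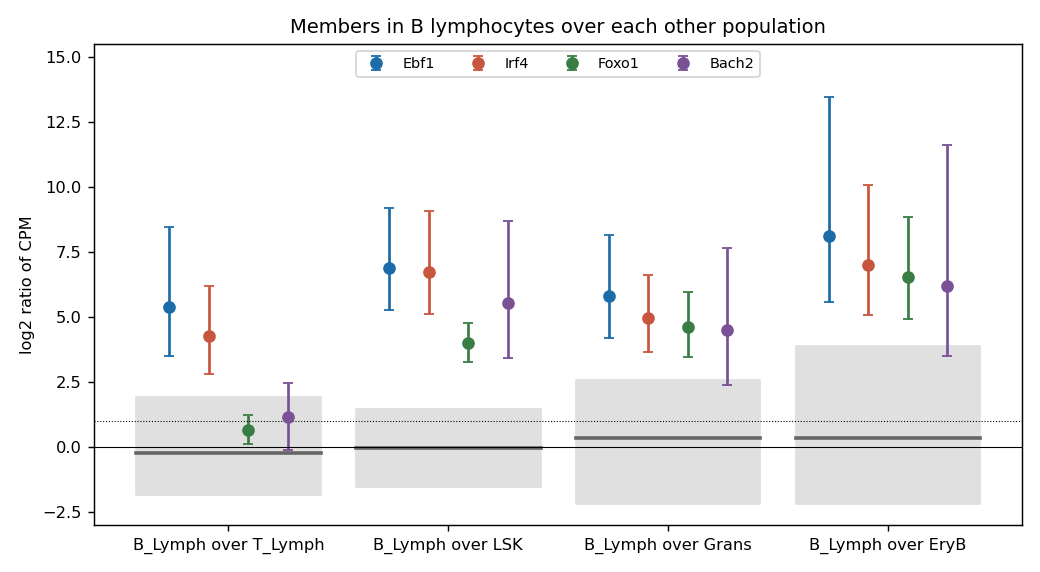
Log2 ratio of CPM in B lymphocytes over each other population for the 4 members with enough UMIs. Points are ratios and error bars 95% exact conditional binomial intervals. Grey boxes span the 5th to 95th percentile of all genes counted, with their median as a line, and the dotted line marks 2-fold. Over T lymphocytes, Foxo1 (0.67) and Bach2 (1.15) lie inside the grey box and Ebf1 (5.39) and Irf4 (4.26) above it, and over the other populations all 4 points lie above it. The box is not a like comparison for members counted only through B lymphocytes.

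Each comparison used the same B lymphocyte wells, so the 4 ratios of a gene are not independent. For Ebf1 the log2 ratio was 5.39 over T lymphocytes (3.48 to 8.47), 6.87 over LSK cells (5.25 to 9.19), 5.82 over granulocytes (4.20 to 8.14) and 8.13 over erythroblasts (5.59 to 13.46). Irf4 gave 4.26 (2.82 to 6.19), 6.74 (5.11 to 9.06), 4.95 (3.64 to 6.63) and 7.00 (5.07 to 10.08) in that order. Foxo1 gave 0.67 (0.10 to 1.23), 3.99 (3.26 to 4.77), 4.60 (3.46 to 5.97) and 6.54 (4.92 to 8.86). Bach2 gave 1.15 (-0.10 to 2.46), 5.53 (3.42 to 8.70), 4.48 (2.37 to 7.65) and 6.20 (3.50 to 11.60). The wide upper ends belong to sums of 1 to 3 UMIs in the other population. The lower ends of the intervals over LSK cells, granulocytes and erythroblasts were 2.37 or higher for all 4 genes.

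Low counts outside B lymphocytes were set beside the level at which B lymphocyte markers appeared in the same wells. The part of RNA carried between wells was not tested. In T lymphocytes the single markers stood at 0.869% to 4.60% of their B lymphocyte level. Ebf1 stood at 2.38% there (interval 0.281 to 8.99) and Irf4 at 5.21% (1.37 to 14.2), whereas Foxo1 stood at 63.0% (42.5 to 93.2) and Bach2 at 45.2% (18.2 to 108). Ebf1 in T lymphocytes thus lay within the marker range and Irf4 above its top. Both intervals overlapped the range and also reached above it, so neither gene was told apart from the markers there. The whole intervals of Foxo1 and Bach2 lay above the range. In LSK cells the markers ranged from 0.262% to 4.31%, and Foxo1 stood at 6.28% (3.65 to 10.4), while Ebf1 (0.856%), Irf4 (0.939%) and Bach2 (2.17%) fell within that range. The interval of Foxo1 overlapped that range, so Foxo1 was not told apart from the markers in LSK cells. The markers spanned 0.216% to 3.29% in granulocytes, where the 4 members lay between 1.77% and 4.49%. Foxo1 (4.13%, 1.59 to 9.08) and Bach2 (4.49%, 0.498 to 19.3) lay above the markers there, with intervals that overlapped their range. In erythroblasts the markers spanned 0.986% to 2.23%, and the 4 members lay between 0.357% and 1.36%. In the other direction, the 7 T lymphocyte markers summed to 8 UMIs in B lymphocytes (58.9 CPM, 2.20% of their T lymphocyte level), with 4 of 7 above 0 and Cd3g, Cd8b1 and Lck at 0. Erythroblast markers in B lymphocytes stood at 11.8% of their erythroblast level and granulocyte markers at 4.41% of their granulocyte level. Of the plasmacytoid dendritic cell markers, which a B220 gate could admit, Siglech and Bst2 had no UMI in B lymphocytes and Tcf4, which B cells also use, had 40.

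**Figure D3:**
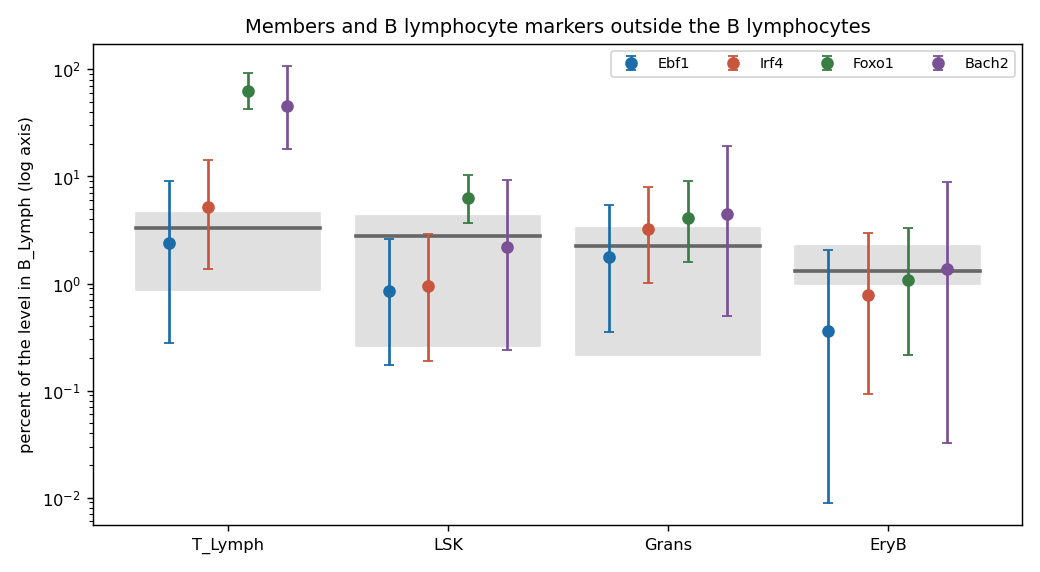
Level of 4 members in each population outside the B lymphocytes, as a percentage of their own B lymphocyte level on a log axis. Points are percentages, error bars 95% exact conditional binomial intervals, and grey boxes the range of the 5 B lymphocyte markers with the percentage of their summed level as a line. In T lymphocytes, Foxo1 (63.0%) and Bach2 (45.2%) lie far above the marker range of 0.869% to 4.60%.

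Within the B lymphocytes, most wells held more than 1 member. No member was seen in 4 wells, 1 member in 7, 2 in 17, 3 in 10, 4 in 4 and 5 in 2. T lymphocyte wells held none in 12, 1 in 23 and 2 in 8, and never more. The 4 B lymphocyte wells without a member were A8, which carried the granulocyte markers described above, B6, with 485 UMIs and no B lymphocyte marker, B10 with 1488 UMIs, and B23 with 1904 UMIs, of which erythroblast markers took 14.1% and B lymphocyte markers 0.263%. B2 held 1 UMI, of Foxo1. Well A16 held 14 UMIs of members: 5 of Foxo1, 4 of Ebf1, 2 of Irf4, 2 of Pax5 and 1 of Bach2.

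Ebf1 and Irf4 were seen together in 17 wells, which is 58.6% of the 29 wells with Ebf1 and 73.9% of the 23 wells with Irf4. Ebf1 and Foxo1 also shared 17 wells, 58.6% of those with Ebf1 and 63.0% of the 27 with Foxo1. Foxo1 and Irf4 shared 14, 51.9% and 60.9% of their wells. Of the 13 wells with Bach2, 12 also held Ebf1 (92.3%, against 41.4% of the Ebf1 wells), 11 held the recombinase gene Rag1 and 7 held Irf4. Rag1 was seen in 24 B lymphocyte wells, 19 of them with Ebf1, 16 with Irf4 and 13 with Foxo1. These shared wells rest on 1 to 6 UMIs per member and well, and deeper wells can show more members.

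**Figure D4:**
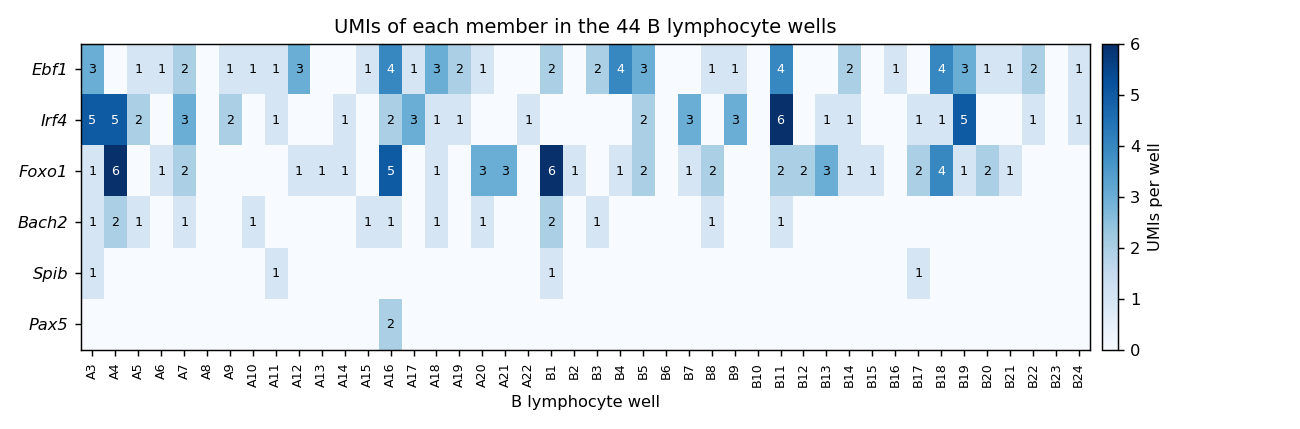
UMIs of each measured member in each of the 44 B lymphocyte wells, named by plate position, with the count written in each filled cell and the colour scale in UMIs per well. Ebf1, Irf4 and Foxo1 are spread over both plate rows, Bach2 has no UMI after well B11, both Pax5 UMIs lie in A16, and A8, B6, B10 and B23 are empty.

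The 2 plate rows of B lymphocytes, A with 20 wells and B with 24, gave a view of the spread within the sort. Ebf1 was 354 CPM in row A and 491 in row B, and Foxo1 had the same pair of levels, 354 and 491. Irf4 was 382 and 384 CPM. Bach2 was 142 CPM in row A (10 UMIs) and 76.7 in row B (5 UMIs), and its log2 ratio over T lymphocytes was 1.50 with row A alone and 0.62 with row B alone, so that its count as 2-fold higher than T lymphocytes rested on row A. Among T lymphocytes, Foxo1 was 284 CPM in row O and 241 in row P, and Bach2 73.2 and 21.9. Rows of 1 sort are not replicates.

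Other factors of the B lineage varied more among themselves. Of a list of 25 (24 measured), 10 of 17 counted were higher in B than in T lymphocytes (58.8%, against 12.1% of all genes). Relb was lower, at 3 against 12 UMIs with a log2 interval of -3.90 to 0.45. Against LSK cells 9 of 20 were higher (45.0%, against 11.2%) and 4 lower, of which Mef2c and Bcl11a were still counted as lower without wells A8 and B2, and Runx1 and Erg were not. Bcl11a rested on 3 B lymphocyte UMIs, with a log2 interval of -3.65 to 0.32 that includes 0. Runx1 (log2 ratio -1.07, -2.05 to -0.23) and Erg (no B lymphocyte UMI, -1.00 by the floor) stood at the 2-fold cutoff. Against granulocytes 8 of 16 were higher (50.0%, against 27.8%) and 2 lower (Bcl6 and Spi1), and against erythroblasts 13 of 15 were higher (86.7%, against 30.5%) and 1, Klf3, lower. Some entered a count only through B lymphocytes, such as Zeb2 (65 against 9 UMIs) and Irf8 (31 against 3) over T lymphocytes. Ikzf3 did so over LSK cells (20 against 1) and over granulocytes and erythroblasts (20 against 0 in both). As said above, such calls are no support, and the shares of all genes are not a like comparison. Myb, needed for early B cells, was 891 CPM in B lymphocytes, 656 in LSK cells and 105 in T lymphocytes. Tcf3, which encodes the E proteins that act upstream of Ebf1, was 501 CPM in B lymphocytes against 135 in erythroblasts, 94.6 in LSK cells, 74.9 in T lymphocytes and 34.7 in granulocytes. Ikzf1, which encodes Ikaros, was 538 CPM in B and 579 in T lymphocytes, and Foxp1 574 and 359. The genes named as lower are outside the naming rule and were chosen after their values were seen, because they were few. Those named for their entry into a count are also outside the rule and were chosen after their values were seen.

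The nearest relatives of the members were also counted. Of 12 relatives, 7 were measured, and Spi1 and Irf8 are also on the list above. Foxo3, a second FOXO factor, was highest in erythroblasts at 234 CPM and stood at 73.6 CPM in B lymphocytes, a log2 ratio of B lymphocytes over erythroblasts of -1.67 (interval -2.76 to -0.75), whereas that of Foxo1 was 6.54. Spi1, which encodes PU.1, the close relative of Spi-B, was 714 CPM in granulocytes, 177 in LSK cells, 110 in B lymphocytes, 44.9 in T lymphocytes and 25.5 in erythroblasts. Irf8, the family relative of Irf4, was 228 CPM in B lymphocytes and 156 in granulocytes, and the log2 ratio between these populations, 0.55, had an interval of -0.12 to 1.19. Bach1 was 22.1 CPM in B lymphocytes (3 UMIs) and 69.4 in granulocytes. Against T lymphocytes 2 of 4 relatives counted were higher (Irf8 and Spi1), against 12.1% of all genes. Both entered that count only through B lymphocytes (31 against 3 and 15 against 9 UMIs), so that share is not a like comparison. The counts were 1 higher (Irf8) and 1 lower (Foxo3) of 5 against LSK cells, 1 higher (Foxo4) and 2 lower (Spi1 and Bach1) of 5 against granulocytes, and 2 higher (Irf8 and Spi1) and 1 lower (Foxo3) of 5 against erythroblasts. Of all genes, 11.2%, 27.8% and 30.5% were higher in these comparisons, and counts of 1 or 2 of 5 are too few to set apart from those shares.

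Genes that the members are known to activate in B cells were mostly higher in B lymphocytes. Of 21 genes, which include 4 of the 5 B lymphocyte markers, 14 of 15 counted were higher than in T lymphocytes and none lower, and 16 of 16 were higher than in LSK cells. All 15 counted were higher than in granulocytes, and all 15 counted higher than in erythroblasts. Their median log2 ratios were 4.78, 5.54, 5.69 and 5.67 in that order. Of all genes, 12.1%, 11.2%, 27.8% and 30.5% were higher in these comparisons. Over LSK cells, Rag2 had 4 against 11 UMIs, and its log2 interval of -0.95 to 2.92 left the direction open. Ciita (10 against 4 UMIs), Cr2 (12 against 3) and Bank1 (20 against 1), among others, entered that count only through B lymphocytes. All 14 genes higher than in T lymphocytes also entered that way, with at most 9 UMIs in T lymphocytes. Over granulocytes and erythroblasts, every counted gene except Cd74 and Vpreb3 did so. As said above, such calls are no support, and the shares of all genes are not a like comparison. Cd74, the invariant chain of class II presentation, stood at 1820 CPM in B lymphocytes, Vpreb3 at 1480 CPM, and the receptor genes Cd79b and Cd79a at 1370 and 1150 CPM. Rag1 was 655 CPM in B lymphocytes and had no UMI in T lymphocytes. The pre-B cell receptor genes Vpreb1 and Igll1 gave 2 UMIs each in B lymphocytes. The exception over T lymphocytes was Il7r, a gene Foxo1 is known for in T cells. It was 376 CPM in B and 245 in T lymphocytes (log2 ratio 0.62, 0.02 to 1.21). Rag1, Vpreb1, Igll1 and Il7r were named after their values were seen.

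Genes that Pax5 or Bach2 is known to repress had few UMIs in B lymphocytes, and Prdm1 and Notch1 had few in any population. Of 7, Prdm1, Notch1 and Hmox1 had no UMI in B lymphocytes, Flt3 and Cd28 had 1 each and Csf1r 2, while Sdc1 had 9. Elsewhere Prdm1 had at most 2 UMIs in a population and Notch1 at most 4, and Hmox1 had 13 in granulocytes (32.2 CPM). With 1 UMI worth 7.36 CPM in B lymphocytes, a 0 of Prdm1 or Notch1 does not set them apart. Only Cd28 could be counted against T lymphocytes and it was lower (1 UMI against 65). Against LSK cells Sdc1 was higher (66.3 against 15.6 CPM) and Flt3 lower (7.36 against 440 CPM) of 3 counted, against granulocytes Csf1r was lower (14.7 against 198 CPM) of 3, and none could be counted against erythroblasts. Several of these genes are made by the other population itself, such as Flt3 by progenitors and Cd28 by T cells.

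**Figure D5:**
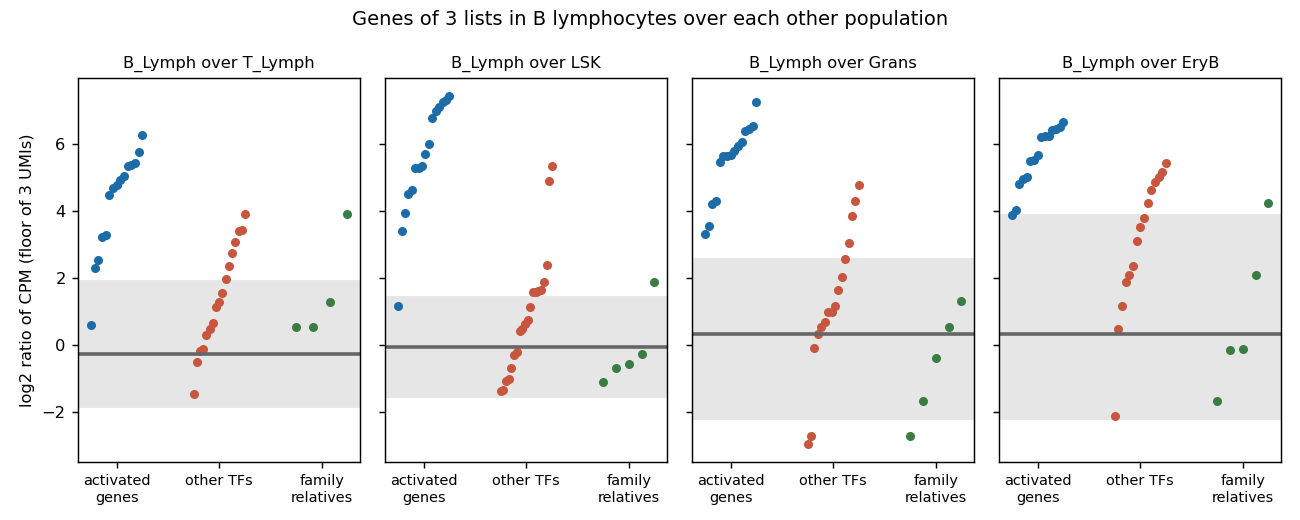
Log2 ratio of CPM in B lymphocytes over each other population for the counted genes of 3 lists, with sums under 3 UMIs set to 3. Each point is a gene, sorted within its list, and the grey band spans the 5th to 95th percentile of all genes counted, with the median as a line. The activated genes lie mostly above the band (medians 4.78, 5.54, 5.69 and 5.67), the other transcription factors (TFs) reach from below it to above it with medians of 1.30, 0.70, 1.08 and 3.53, and few family relatives could be counted. The band is not a like comparison for genes counted only through B lymphocytes.

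The genes whose spread over the 5 populations was most like that of each member were found by comparing shares of CPM, as 50% of the summed absolute differences, so that 0 means the same shares, over 5 pools and among genes with at least 50 UMIs. For Ebf1 they were Cd74 (0.0098), Fam129c (0.0151) and Ly6d (0.0169), and with genes of 30 to 50 UMIs let in, Mzb1 (0.0102) and Fcmr (0.0149) took the places of Fam129c and Ly6d. For Irf4 they were Akap12 (0.0250), the kinase gene Blk (0.0288) and Vpreb3 (0.0318). Foxo1 was nearest to Il7r (0.0371), followed by the inhibitory receptor gene Btla (0.0567) and Itpr3 (0.0759). Bach2 was nearest to Sbk1 (0.0524), Btla (0.0668) and Foxo1 itself (0.0880). Blk, Vpreb3, Cd74 and Il7r were also on the list of activated genes above. B lymphocytes took 94.4% of the summed CPM of Cd74, and T lymphocytes 36.1% of that of Foxo1 and 37.7% of that of Il7r.

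Annotated neighbours limit some counts. Foxo1 and Bach2 overlap antisense genes on exons (Gm20402 and Bach2os), and so does Pax5 (Gm12462), and whether the counting used strand is not given in the sources used here. Reads of these genes and of their antisense partners may therefore not have been told apart. Irf4 and Spib overlap no annotated gene, and the antisense gene within Ebf1 shares no exon with it.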

How the data were processed

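Index-sorted single cells on 1 384-well plate were profiled by CEL-seq2. The authors deposited raw UMI counts per gene and well, made with scPipe, in which reads are aligned, assigned to exons, matched to designed barcodes and collapsed to UMIs. The genome build, annotation and aligner version, and whether strand was used, were not given in the sources used here. Counts were used as deposited from 374 wells matched by well name, and 9 further columns without a matching sample were left aside. No well was filtered and no doublets were called. Ensembl IDs were matched to GENCODE M21 (GRCm38) symbols (19755 of 19829), which also gave coordinates, and the 74 ERCC rows were left out of totals.

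Counts were summed per population and scaled to CPM. Genes with at least 10 UMIs in 2 populations were counted at 2-fold, with sums under 3 UMIs set to 3. Likeness was computed for members with at least 30 UMIs, over the 6317 genes with at least 50, and the 3 nearest genes were named. From each list up to 4 genes with the most UMIs were named, and genes outside that rule were chosen after their values were seen. Intervals are 95% exact intervals from scipy 1.17.1 and were tested on simulated counts. Alternatives used edgeR 4.0.16 (TMM), DESeq2 1.42.0 and scran 1.30.0 size factors, ERCC scaling, other filters and left-out wells. Wells were thinned by the exact expected share. The members and lists were chosen with earlier results of these data known, and 2 genes first listed are not reported here and were left out of the lists and marker sums.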

Additional observations from a re-analysis of the deposited data

How the results depend on the processing

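Against LSK cells, granulocytes and erythroblasts every counted member stayed at least 2-fold higher in B lymphocytes under all scalings, filters and left-out wells tried. As said above, most of these members entered the count only through their B lymphocyte UMIs. Against T lymphocytes the count was 2 to 3: Bach2 fell below 2-fold with ERCC scaling (log2 ratio 0.71) and with plate row B alone (0.62), and below the filter at a minimum of 50 UMIs, and 2 members passed 4-fold. Counting intervals above 1 in place of 2-fold gave Ebf1, Irf4 and Foxo1, without Bach2. Over the alternatives, the log2 ratio of B over T lymphocytes ran from 4.96 to 5.62 for Ebf1, 3.83 to 4.46 for Irf4, 0.62 to 1.50 for Bach2 and 0.23 to 0.89 for Foxo1, and no log2 ratio changed sign. The share of all genes called higher moved more, from 2.18% to 21.2% over LSK cells among the scalings.

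The summed level of the members depended on the scaling: in B lymphocytes 1377 CPM became 1781 without the non-coding RNA Gm42418, 2169 without the 20 most abundant genes of each population, 1160 with TMM, 867.5 with ERCC and 1070 with scran factors. In T lymphocytes 344 CPM became 472 without the 20 genes and 249.6 with scran, in LSK cells 35.9 became 56.7 with ERCC, in granulocytes 42.1 became 72.6 without the 20 genes, and in erythroblasts 12.0 became 33.8 with scran. Without wells A8 and B2, 2 in place of 4 other transcription factors were lower than in LSK cells. Those that dropped out, Runx1 and Erg, had stood at the cutoff. Erg had no UMI in B lymphocytes and was placed by the floor, and for Runx1 the cause was not tested. Of the 3 genes most like each member, a minimum of 30 UMIs kept 1 for Ebf1, and one of 100 UMIs kept 1 for Foxo1 and 2 each for Bach2 and Irf4. Leaving out wells B19 to B24, and the left-out wells for the lists, were chosen after seeing the data. Depth limits Pax5 and Spib most: at 2 and 4 UMIs in B lymphocytes no fold between populations was precise. No paired analysis was possible because each population is 1 sample and well numbers pair no samples.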

Other observations

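The sorter recorded B220 fluorescence for each well, and the B lymphocytes left a gap on that scale: 8 wells lay between 2458 and 4783 and the other 36 between 352 and 1718. The dividing value of 2000 and the genes below were chosen after their values were seen, and the 8 wells held 20494 UMIs in all, so the values are a description with no test. Bach2, Spib and Pax5 had no UMI in the 8 bright wells, where their upper limit was 180 CPM, and Bach2 stood at 130 CPM (72.8 to 215) in the other 36. Irf4 was 97.6 CPM in the bright wells (2 UMIs, 11.8 to 353) and 434 CPM in the others (322 to 572). Ebf1 was 244 CPM (79.2 to 569) against 451 (337 to 591) and Foxo1 342 (137 to 704) against 434 (322 to 572). For each of these members the intervals of both sets overlapped, for Irf4 only from 322 to 353 CPM. Such an overlap does not show equal levels, and no interval of a ratio between the sets was computed.

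Some other genes parted more widely along the same line, and some did not. Cd74, the gene most like Ebf1 over the 5 populations, was 8780 CPM (7550 to 10200) in the bright wells and 581 (450 to 738) in the others, and 180 of its 247 UMIs in B lymphocytes came from the 8 wells. Ms4a1 was 586 CPM (303 to 1020) against 434 (322 to 572) and Klf2 439 (201 to 834) against 304 (211 to 422), both with overlapping intervals. Igkc was 4640 CPM (3750 to 5670) against 3040 (2730 to 3380). The early B cell genes ran the other way: Vpreb3 was 195 CPM (53.2 to 500) against 1710 (1480 to 1960), Myb 97.6 (11.8 to 353) against 1030 (855 to 1230), and Rag1 146 (30.2 to 428) against 746 (597 to 921). The median depth was 2321 UMIs in the bright wells and 3144.5 in the others, and its part in these values was not tested. Well B23, rich in erythroblast markers, was among the bright wells, and well A8, rich in granulocyte markers, among the others.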
